A study of Mus musculus with 12 samples.

Results

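The comparison described here is the effect of a stapled FOXP3 peptide in regulatory T cells (Treg) set against its effect in conventional T cells (Tcon) of the same organs. It uses 12 of the 12 libraries of the series, 6 of CD4+CD25+FOXP3+ Treg and 6 of CD4+ Tcon, which the design text calls naive. Within each cell type 2 lymph node libraries and 2 spleen libraries came from mice given 25 mg/kg of the peptide SAH-FOXP3(229-259)C, called SAH here, and 1 library of each organ came from mice given vehicle, named DMSO in the titles. Injections were intraperitoneal and daily over 2 days. All mice, vehicle controls included, carried B6.Cg-Foxp3tm2Tch/J (FOXP3-IRES-GFP), in which the Foxp3 locus also encodes GFP. The sources used here give no age of the mice. The titles number the libraries, with 1 Treg and 1 Tcon library under each number: vehicle is 01 in lymph node and 04 in spleen, and SAH is 02 and 03 in lymph node and 05 and 06 in spleen. They also leave unsaid whether each library is a mouse of its own and whether both organs of a mouse were used. A p-value here therefore reflects only how these libraries vary, which may be technical variation.

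FOXP3 is the transcription factor that establishes and maintains Treg, where it activates some genes and represses others together with partner factors. Naive Tcon have little of it, so a comparison of both cell types after the same injection sets the RNA of cells that hold the peptide's target at a high level beside that of cells that hold little. T cells respond to receptor engagement and to stress within minutes through immediate-early genes, such as those of the NR4A, FOS and EGR families. Many of these encode transcription factors whose RNA is short-lived.

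The quantity tested for each gene is the SAH minus vehicle change in Treg minus the same change in Tcon, on the log2(CPM + 1) scale, called the difference below. A negative difference means that the change was lower in Treg than in Tcon. Both tables list 9784 genes, of 10507 in either. A further 621 are listed for Treg only and 102 for Tcon only, and these are not part of the comparison. Reads in the listed genes came to between 36442420 and 48888678 per library, so that 1 read was worth at most 0.0267 CPM. Foxp3 was at 655 to 726 CPM in Treg libraries and 19.6 to 24.9 CPM in Tcon libraries, in tables that were normalized separately. The summed level of the 5 measured T cell markers was 2679 to 2767 CPM in Treg and 2990 to 3269 CPM in Tcon. Levels are not compared between the cell types.

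The peptide effect differed between Treg and Tcon in 76 of 9784 genes, 0.777% of those tested (limma with Benjamini-Hochberg adjustment, adjusted p under 0.05, libraries paired by number). The difference was negative in 62 of these (0.634% of genes) and positive in 14 (0.143%), and 8 exceeded 1.5-fold. Genes at an unadjusted p below 0.05 numbered 1009, where a share of 0.05 of the 9784 would be expected with no effect. All 62 genes with a negative difference had a positive change in Tcon, with a median of 0.42 and a range of 0.17 to 1.10. Their Treg changes lay around 0, with a median of 0.01 and a range of -0.18 to 0.29, 33 of them positive and 29 negative. All 14 genes with a positive difference had a negative change in Tcon (median -0.34), and in Treg 8 were positive and 6 negative (median 0.08). These changes use the same libraries as the difference and are given as descriptions of the 76. The difference had 1 sign in 4 of 4 SAH pairs for all 76, as it had for 28.8% of all genes.

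**Figure D1:**
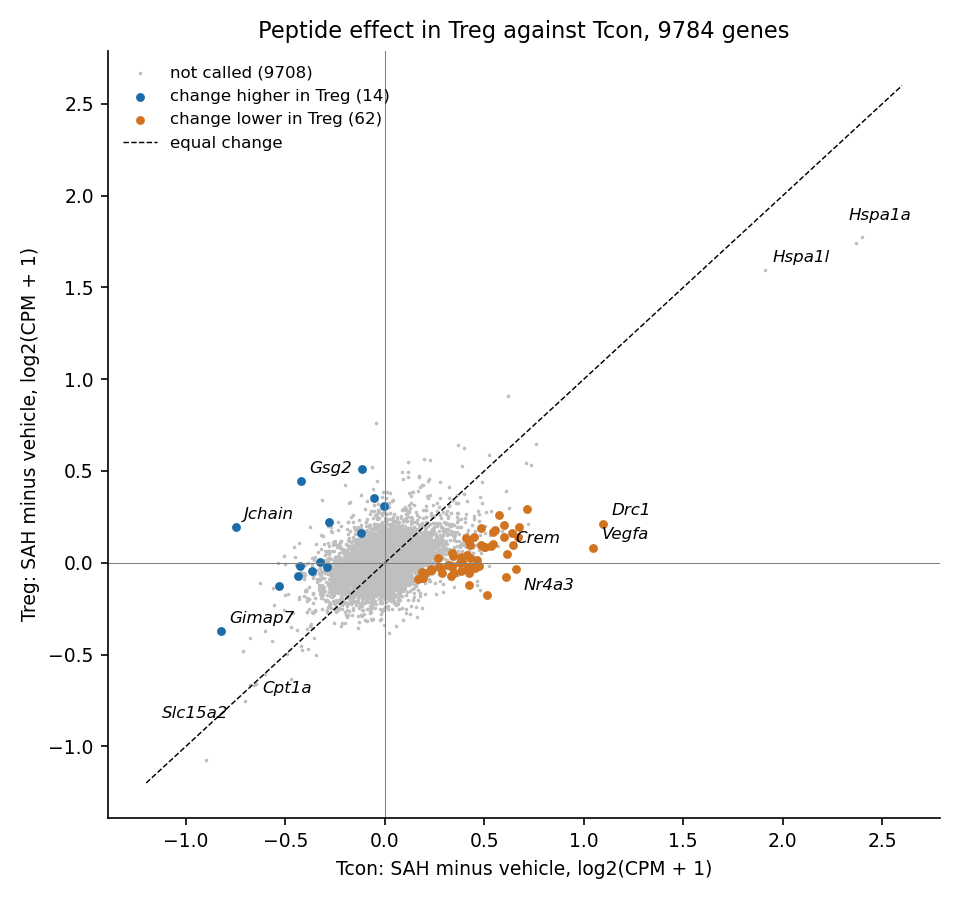
Change after SAH in Treg (vertical axis) against the change in Tcon (horizontal axis), both as SAH minus vehicle in log2(CPM + 1), for 9784 genes. The dashed line marks equal change; the 14 genes called higher in Treg are blue and lie above it, the 62 called lower are orange and lie below it, mostly at Treg changes near 0. Hspa1a, Hspa1l, Cpt1a and Slc15a2, which changed in both cell types, are named among the uncalled genes.

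Of the 62 genes with a negative difference, 40 passed as higher in Tcon on their own, and 0 passed in Treg. Over the same 9784 genes, 19 changed in the fit of Treg (0.194%), with 13 higher (0.133%) and 6 lower (0.0613%), and 103 in the fit of Tcon (1.05%), with 87 higher (0.889%) and 16 lower (0.164%). The pairing matters to the count: without the library number as a block, 0 genes passed in limma, 453 had an unadjusted p below 0.05, and the lowest adjusted p was 0.0615. These 453 are fewer than the share of 0.05 of the 9784 genes that would be expected with no effect. Without limma's intensity trend 0 passed as well, with 923 at an unadjusted p below 0.05 and a lowest adjusted p of 0.111. With the number as a random effect in place of the block 19 passed. With both libraries of number 04 left out the count was 16, and 9 of the 76 kept their call, of the genes named below only Crem, Elmsan1, Glul, Gsg2, Nop56, Rpl38, Socs3 and Tob2. Without numbers 02 and 05 it was 144 and 34.

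Among genes of the immediate-early and T cell receptor response, the RNA of all 3 NR4A receptors was raised by SAH in Tcon and did not pass in Treg. NR4A proteins are nuclear receptors that need no known ligand, are induced by receptor signals in T cells and restrain T cell responses. The 250 bases upstream of their annotated starts are shown, from RefSeq on GRCm38.p6, since all 3 members were called and each window holds 4 copies of TGACG, the core of the cAMP response element, on either strand. Capitals mark TGACG or its reverse complement. The windows are chr15:101266596-101266845 on the plus strand, chr2:57124004-57124253 on the minus strand and chr4:48045055-48045304 on the plus strand.
Nr4a1: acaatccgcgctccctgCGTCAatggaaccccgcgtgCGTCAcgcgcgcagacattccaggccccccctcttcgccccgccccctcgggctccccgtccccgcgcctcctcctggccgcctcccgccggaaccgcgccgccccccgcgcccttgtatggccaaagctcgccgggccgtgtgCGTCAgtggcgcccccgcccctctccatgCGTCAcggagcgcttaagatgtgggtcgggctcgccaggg
Nr4a2: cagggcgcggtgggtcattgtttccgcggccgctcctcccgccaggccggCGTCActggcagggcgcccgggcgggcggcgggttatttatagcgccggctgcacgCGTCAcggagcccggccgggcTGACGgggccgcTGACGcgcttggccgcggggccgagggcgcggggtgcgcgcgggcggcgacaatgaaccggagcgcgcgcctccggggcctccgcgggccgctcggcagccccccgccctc
Nr4a3: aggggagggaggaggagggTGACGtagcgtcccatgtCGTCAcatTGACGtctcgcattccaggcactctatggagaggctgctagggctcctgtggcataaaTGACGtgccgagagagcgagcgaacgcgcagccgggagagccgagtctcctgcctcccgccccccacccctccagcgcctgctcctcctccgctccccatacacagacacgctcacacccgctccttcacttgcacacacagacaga

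Nr4a1, the family member that marks recent receptor signalling, was at 809 and 778 CPM in lymph node SAH Treg and at 934 and 1041 CPM in spleen SAH Treg, against 836 and 1112 CPM in lymph node and spleen vehicle Treg. In Tcon it was at 551 and 491 CPM in lymph node SAH and 748 and 787 CPM in spleen SAH, against 419 and 530 CPM in vehicle. Every SAH library of Treg was thus below its organ's vehicle library, and every SAH library of Tcon above it. The difference was -0.55 (95% interval -0.70 to -0.40, limma adjusted p = 0.00147), from changes of -0.12 in Treg and 0.42 in Tcon.

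Nr4a3 was at 89.6 and 102 CPM in lymph node SAH Treg and 117 and 111 CPM in spleen SAH Treg, against 87.5 and 131 CPM in vehicle Treg. In Tcon it was at 84.8, 99.5, 95.7 and 101 CPM after SAH, in the same order, against 62.4 and 57.5 CPM in vehicle. The SAH and vehicle libraries did not overlap in Tcon, while in Treg the vehicle libraries were the lowest and the highest of the 6. Its difference was -0.69 (95% interval -0.88 to -0.51, limma adjusted p = 0.00147), and without number 04 it was -0.42 and not called (adjusted p = 0.0517). Nr4a2 had a smaller difference of -0.37 (adjusted p = 0.0155), with changes of 0.18 in Treg and 0.55 in Tcon.

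Windows were found for 50 of 61 genes with a negative difference, 14 of 14 with a positive one and 7865 of 9648 tested, counting each gene once. The TGACG core stood in 25 of 50 upstream windows of genes with a negative difference (50%), in 4 of 14 with a positive one (28.6%) and in 33.1% of the 7865 windows of all tested genes. At least 3 copies were in 4 of the 50 windows (8%), those of Nr4a1, Nr4a2, Nr4a3 and Coq10b, and in 1.95% of all windows. The whole element TGACGTCA was in 3 of the 50 (6%; Errfi1, Plk2 and Ppp1r15a) and in 3.33% of all. These letters were chosen for the search after the called genes were known, and a match is not a binding site.

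Other transcription factor genes of the list passed in the same direction. Fos, a subunit of AP-1, was at 1065, 982, 1018 and 1196 CPM in SAH Treg (lymph node pair first), against 1145 and 854 CPM in vehicle. In Tcon Fos was at 255, 259, 350 and 409 CPM after SAH, against 233 and 196 CPM. SAH Treg were below vehicle in lymph node and above it in spleen, whereas SAH Tcon were above vehicle in both organs. The Fos difference was -0.44 (95% interval -0.58 to -0.30, adjusted p = 0.00291), although its change did not pass in Tcon alone (0.54, adjusted p = 0.114). Egr1, a zinc finger factor (-0.47), Klf4, a Krüppel-like factor (-0.48), Fosl2, an AP-1 subunit (-0.42), and Ier2, an immediate-early nuclear protein (-0.41), also passed. Without number 04 the values were -0.26 for Egr1, -0.30 for Klf4 and -0.18 for Fosl2, and none of these was called; without number 01 Fosl2 was at -0.66.

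Feedback genes of the list passed as well: Dusp5 (-0.36) and Dusp10 (-0.45), phosphatases that switch off MAP kinases, and Ppp1r15a (-0.33), which directs the phosphatase of eIF2alpha. Dusp10 holds the annotated gene 1700056E22Rik on the opposite strand within its span, and reads where both overlap cannot be told apart. Of these 11 called members, those beyond the first 4 by size are named because their values were seen. The upstream window of Fos, chr12:85473640-85473889 on the plus strand of GRCm38.p6, is shown for comparison with the NR4A genes and holds 2 copies of TGACG.
Fos: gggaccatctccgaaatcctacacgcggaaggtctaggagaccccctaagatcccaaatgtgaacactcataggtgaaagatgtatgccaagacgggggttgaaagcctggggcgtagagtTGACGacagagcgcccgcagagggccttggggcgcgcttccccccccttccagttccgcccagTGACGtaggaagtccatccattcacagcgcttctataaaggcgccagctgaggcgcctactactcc

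In all, 36 genes of this list were measured, of which 11 were called lower in Treg, 0 higher and 25 not, beside 0.634% of all genes called lower. With the number as a random effect 3 of the 11 were called (Nr4a1, Nr4a3 and Dusp5), and without number 04 0 were. The median difference of the list was -0.26, beside 0.004 over all genes, from list medians of 0.03 in Treg and 0.28 in Tcon. In Treg 0 of the 36 passed, beside 0.194% of all genes, and in Tcon 8 rose, beside 0.889%. The list was not uniform: Cd69, an early activation receptor, had a difference of 0.26 (adjusted p = 0.0698) and Junb one of -0.48 with a wide interval of -0.78 to -0.18 (adjusted p = 0.176). Pair by pair, the list median was -0.05 and -0.18 in the lymph node pairs 02 and 03, and -0.33 and -0.42 in the spleen pairs 05 and 06. Without number 04, which removes the spleen vehicle libraries, it was -0.08. In the test of organ dependence below 0 of the 36 genes passed, beside 0.0409% of all genes. At so small a share this count does not say whether the list depended on the organ.

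**Figure D2:**
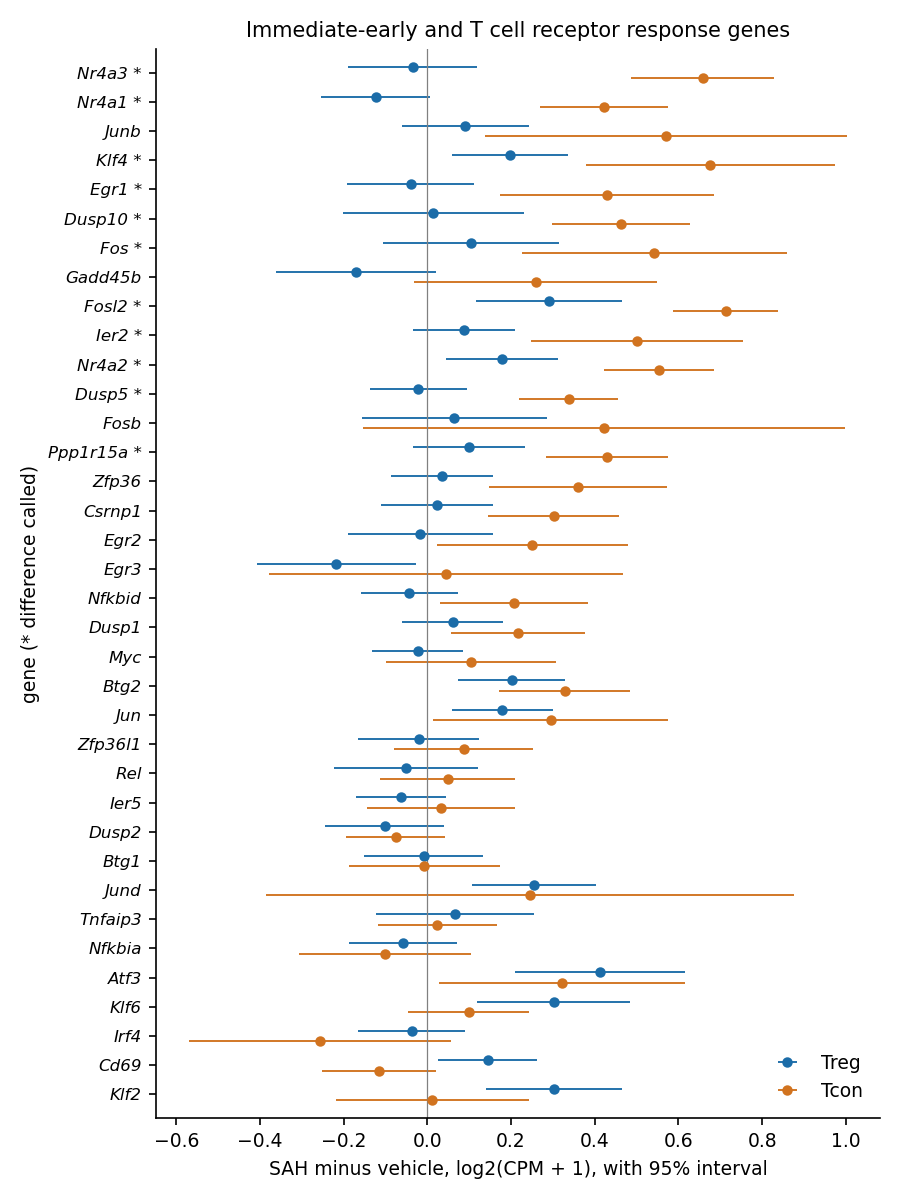
SAH minus vehicle change of the 36 measured genes of the immediate-early and T cell receptor response in Treg (blue) and Tcon (orange), in log2(CPM + 1), with 95% intervals of the model from 6 libraries per cell type. Genes run from the most negative to the most positive difference and an asterisk marks the 11 called; from Nr4a3 to Ppp1r15a the Tcon points lie between 0.26 and 0.71 while Treg points lie between -0.17 and 0.29.

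The largest negative difference was that of Vegfa, which encodes an angiogenic growth factor induced by hypoxia and by stress (chr17:46016993-46032369, minus strand, mm10). It was at 4.35 and 3.15 CPM in lymph node SAH Treg and 3.24 and 3.25 CPM in spleen SAH Treg, against 3.42 and 3.04 CPM in vehicle. In Tcon it was at 14.2 and 15.7 CPM in lymph node SAH and 9.71 and 10.6 CPM in spleen SAH, against 6.88 and 4.30 CPM in vehicle. The SAH and vehicle libraries overlapped in Treg and were apart in Tcon. The difference was -0.96 (95% interval -1.29 to -0.64, limma adjusted p = 0.00441), and a change at so low a level in Treg is understated on this scale. Of the 21 measured glycolysis and hypoxia genes only Vegfa was called lower in Treg, beside 0.634% of all genes. In that list 0 were called higher, and its median was -0.05.

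Socs3, a feedback inhibitor of cytokine receptor signalling (chr11:117966079-117970047, minus strand, mm10), was at 196, 192, 238 and 215 CPM in SAH Treg, against 177 and 197 CPM in vehicle. In Tcon Socs3 was at 103, 117, 143 and 123 CPM after SAH, against 72.3 and 82.2 CPM. Every SAH library was above its organ's vehicle in both cell types, and SAH and vehicle libraries were apart in Tcon and overlapped in Treg. The difference was -0.48 (95% interval -0.61 to -0.35, adjusted p = 0.00147), and the call held in 6 of 6 fits that left out 1 number. Of 19 measured STAT5 and cytokine feedback genes 3 were called lower, beside 0.634% of all genes, and 0 higher (list median -0.07). The other called members were Il4ra, a subunit of the interleukin-4 receptor (-0.27, and -0.17 and not called without number 01), and Bcl2, an inhibitor of apoptosis (-0.26).

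Crem, the cAMP-responsive element modulator, had a difference between -0.61 and -0.53 in each of the 4 SAH pairs. It was at 28.7, 33.4, 40.0 and 35.3 CPM in SAH Treg, against 26.0 and 41.6 CPM in vehicle, and at 98.5, 115, 95.6 and 90.0 CPM in SAH Tcon, against 60.6 and 68.7 CPM in vehicle. Treg after SAH were above vehicle in lymph node and below it in spleen, and Tcon were above it in both. The difference of -0.57 (adjusted p = 0.000776) kept its call in 6 of 6 fits that left out 1 number. The other genes that kept it in all 6 were Tob2, an antiproliferative factor that binds the mRNA deadenylase (-0.48), Glul, which encodes glutamine synthetase (-0.40), Elmsan1 (-0.38), Nop56, a core protein of box C/D small nucleolar RNPs (-0.38), and Socs3.

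The remaining genes named by size were Drc1, a subunit of the dynein regulatory complex (-0.88), Arc, an immediate-early gene best known from neurons (-0.69), and Hspa2, an HSP70 family member (-0.69). After them came Sertad1, a transcriptional coregulator (-0.55), Csrnp2, a nuclear protein of a small cysteine and serine rich family (-0.53), Sesn2, a sestrin that senses leucine (-0.49), Rasl11b, a small GTPase (-0.48), and Enc1 (-0.47). Drc1 was measured at only 0.933 to 9.78 CPM, and its call was lost with a pseudocount of 5 (-0.36, adjusted p = 0.0755). Arc was at 33.4, 27.9, 30.4 and 35.3 CPM in SAH Treg, against 40.1 and 32.1 CPM in vehicle, and at 35.2, 37.4, 35.0 and 47.9 CPM in SAH Tcon, against 32.1 and 22.2 CPM. Its Tcon libraries after SAH were above both vehicle libraries, while in Treg SAH and vehicle overlapped.

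Of 22 measured genes of the integrated stress response and amino acid supply, 4 were called lower in Treg, beside 0.634% of all genes, 0 higher and 18 not, with a median of -0.15 from 0.11 in Treg and 0.27 in Tcon. Those called were Sesn2, the amino acid transporter genes Slc7a5 (-0.39) and Slc38a2 (-0.37), and Atf4, the transcription factor of this response (-0.28). Slc7a5 was at 70.6, 70.8, 59.3 and 53.6 CPM in SAH Treg, against 57.6 and 51.9 CPM in vehicle, and at 79.6, 79.0, 64.5 and 66.4 CPM in SAH Tcon, against 49.0 and 45.6 CPM. It was above its organ's vehicle in every SAH library of both cell types, and passed as raised in Tcon only (0.60, adjusted p = 0.00211, against 0.20 and adjusted p = 0.411 in Treg). The 4 pair medians of the list lay between -0.18 and -0.10. With the number as a random effect only Slc7a5 was called, and without number 04 0 of the 4 were, with Sesn2 at -0.29 and Slc38a2 at -0.17, which was -0.57 without number 01.

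Ribosomal protein genes had small differences, nearly all of 1 sign. Of 75 cytosolic ribosomal protein genes 74 had a negative difference, with a median of -0.16. Only Rpl38 was called lower (-0.33, limma adjusted p = 0.0331), beside 0.634% of all genes. It stood at -0.19 without number 01. Over all genes 4748 of 9784 were negative. The pair medians were -0.30, -0.19, -0.14 and -0.01 for numbers 02, 03, 05 and 06. Among 25 ribosome biogenesis genes 22 were negative (median -0.09) and only Nop56 was called lower, beside 0.634% of all genes.

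Several called genes of signalling and metabolism are named here because their values were seen. Sik1, a kinase induced by cAMP (-0.38), Errfi1, a feedback inhibitor of the EGF receptor (-0.42), Irs2, an insulin receptor adaptor (-0.42), Sgk1, a serum and glucocorticoid induced kinase (-0.38), Plk2, a polo-like kinase (-0.44), and Coq10b, a coenzyme Q binding protein (-0.40), were all called lower in Treg. Sik1 was at 875, 955, 1063 and 1245 CPM in SAH Treg, against 909 and 1154 CPM in vehicle, and at 544, 583, 616 and 728 CPM in SAH Tcon, against 493 and 449 CPM. In each organ of Treg 1 SAH library was below vehicle and 1 above, and in Tcon all were above both. Without number 04 Sik1 was at -0.18, Sgk1 at -0.22 and Irs2 at -0.27, none of them called, and without number 01 Sik1 was at -0.58. A further 24 called genes, not named, had differences between -0.46 and -0.24, with changes of -0.09 to 0.26 in Treg and 0.17 to 0.60 in Tcon.

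**Figure D3:**
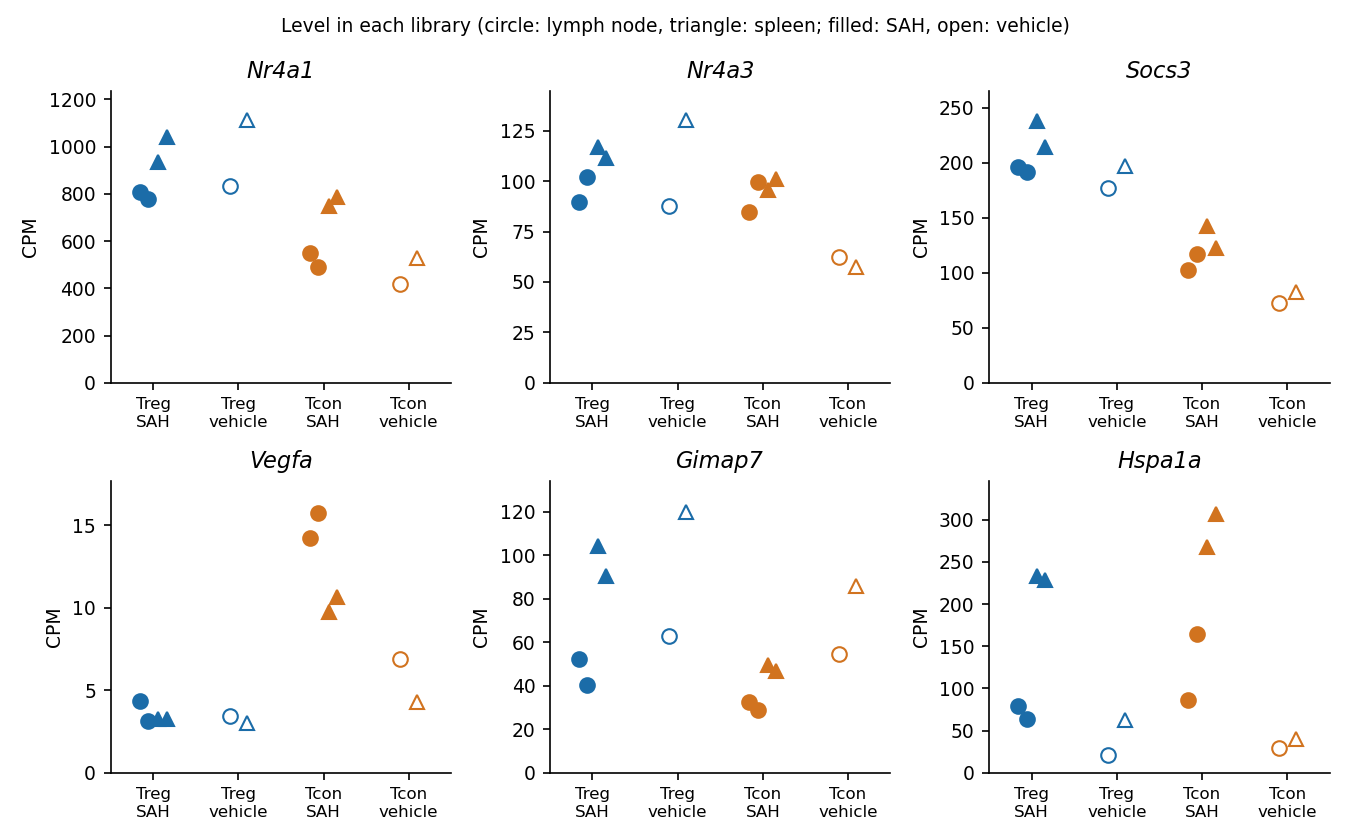
Level in CPM of 6 genes in each library, by cell type and treatment, with circles for lymph node, triangles for spleen, filled symbols for SAH and open symbols for vehicle. Nr4a1, Nr4a3, Socs3 and Vegfa stand above their organ's vehicle in every SAH library of Tcon, Gimap7 stands below it in both cell types, and Hspa1a stands above it in both. Treg and Tcon tables were normalized separately.

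In the opposite direction, 14 genes had a positive difference. Gimap7, one of the GTPases that regulate lymphocyte survival (chr6:48718621-48724636, plus strand, mm10), was lower after SAH by more in Tcon than in Treg. It was at 52.5 and 40.4 CPM in lymph node SAH Treg and 104 and 90.3 CPM in spleen SAH Treg, against 63.0 and 120 CPM in vehicle, and at 32.3, 28.7, 49.5 and 46.6 CPM in SAH Tcon, against 54.5 and 85.9 CPM. Every SAH library was below its organ's vehicle in both cell types. The difference was 0.45 (95% interval 0.30 to 0.60, limma adjusted p = 0.00479), between changes of -0.37 in Treg (adjusted p = 0.176) and -0.82 in Tcon (adjusted p = 0.000752). Gimap7 was the only called gene of 8 measured GIMAP genes, beside 0.143% of all genes called higher. The median of the 8 was 0.09.

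Cd44, a hyaluronan receptor of activated and effector T cells, was at 183, 188, 163 and 155 CPM in SAH Treg, against 176 and 166 CPM in vehicle, and at 64.4, 60.7, 80.9 and 72.1 CPM in SAH Tcon, against 73.3 and 103 CPM. Its SAH libraries were below their organ's vehicle in Tcon, and in Treg above it in lymph node and below it in spleen. The difference was 0.33 (95% interval 0.21 to 0.45, adjusted p = 0.00923). Of 18 measured effector Treg and tissue-homing genes Cd44 alone was called, beside 0.143% of all genes called higher, 16 were positive and the median was 0.23. In Treg 4 of them rose (Anxa2, Lgals1, S100a4 and S100a6), beside 0.133% of all genes, and in Tcon 0 passed. The 3 myeloid and dendritic markers measured of 12 (Lyz2, Itgam and Cst3) had a summed level in spleen of 72.3 to 90.4 CPM in SAH Treg, against 55.6 CPM in vehicle, and of 39.1 to 44.9 CPM in SAH Tcon, against 40.2 CPM. In lymph node it was 26.4 to 27.7 CPM in SAH Treg, against 26.8 CPM, and 18.6 to 20.6 CPM in SAH Tcon, against 18.5 CPM. Their median difference was 0.23 with 0 called, and their part in the effector list was not tested. The 5 measured CD8 and natural killer markers summed in spleen to 65.3 to 65.8 CPM in SAH Tcon, against 81.7 CPM in vehicle. In spleen SAH Treg they were at 34.6 to 34.8 CPM, against 33.5 CPM. In lymph node they were at 31.0 to 34.4 CPM in SAH Tcon, against 33.0 CPM. The median difference of these 5 was -0.04 with 0 called, and their part in Cd44 was not tested. The median of the effector list was 0.09 without number 04 and 0.36 without number 01. S100a6, a calcium-binding protein, had a difference of 0.63 and Lgals3, a galectin, one of 0.81, which did not pass (adjusted p = 0.108 and adjusted p = 0.0518).

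The largest positive difference was that of Jchain, a plasma cell gene whose product joins antibody subunits. It was below 1 CPM in all lymph node libraries. In spleen it was at 72.1 and 120 CPM in SAH Treg, against 108 CPM in vehicle, and at 36.7 and 38.9 CPM in SAH Tcon, against 102 CPM. The difference was 0.94 (adjusted p = 0.00736) and was not called with a pseudocount of 5 (0.65, adjusted p = 0.0823). The lymph node values below 1 CPM enter it as well. Without number 04, which leaves the effect to lymph node, it was 0.68. Of 5 plasma cell markers 3 were measured, and those other than Jchain, Xbp1 and Prdm1, summed in spleen to 143 and 130.0 CPM in SAH Treg, against 136 CPM in vehicle, and to 123 and 116 CPM in SAH Tcon, against 129 CPM. In lymph node, where Jchain was below 1 CPM, Xbp1 and Prdm1 summed to 127 and 122 CPM in SAH Treg, against 107 CPM in vehicle. The lymph node sums were 119 and 136 CPM in SAH Tcon, against 106 CPM, so this sum does not follow Jchain between organs. Fewer cells of a kind and less RNA per cell cannot be told apart in such bulk libraries, and the part of plasma cells in the Jchain difference was not tested.

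Gsg2, the haspin kinase gene, lies within Itgae on the opposite strand (chr11:73135485-73138294, minus, within chr11:73090583-73147446, plus, in mm10). Gsg2 was at 28.6, 32.1, 14.3 and 13.1 CPM in SAH Treg, against 20.2 and 10.7 CPM in vehicle, and at 3.34, 3.09, 3.64 and 3.78 CPM in SAH Tcon, against 4.67 and 5.29 CPM. SAH libraries were above vehicle of their organ in Treg and below it in Tcon, for a difference of 0.87 (adjusted p = 0.00249). Itgae, which encodes the integrin chain CD103, is listed for Treg only, at 213, 228, 68.1 and 77.3 CPM after SAH, against 141 and 52.5 CPM in vehicle. As the sources used here do not say whether counting used strand, reads of both genes cannot be told apart.

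Adk, which phosphorylates adenosine, had a difference of 0.41, which was 0.25 and not called without number 04. Hprt1, which salvages hypoxanthine and guanine (0.28), passed too. Rap1gap2, which inactivates the GTPase Rap1 (0.63), Dhrs1, a short-chain dehydrogenase (0.50), Appl2, an endosomal adaptor (0.41), H1f0, a linker histone (0.40), and Gng2, a G protein gamma subunit (0.37), were higher in Treg than in Tcon in their change. So were Gmfb, a regulator of actin branches (0.32), H2-Q2, an MHC class I gene (0.31), and Atxn7l3b (0.27). Of the 14, H2-Q2 alone passed as raised in Treg (0.31), and 2 passed as lower in Tcon, Gimap7 and Adk.

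**Figure D4:**
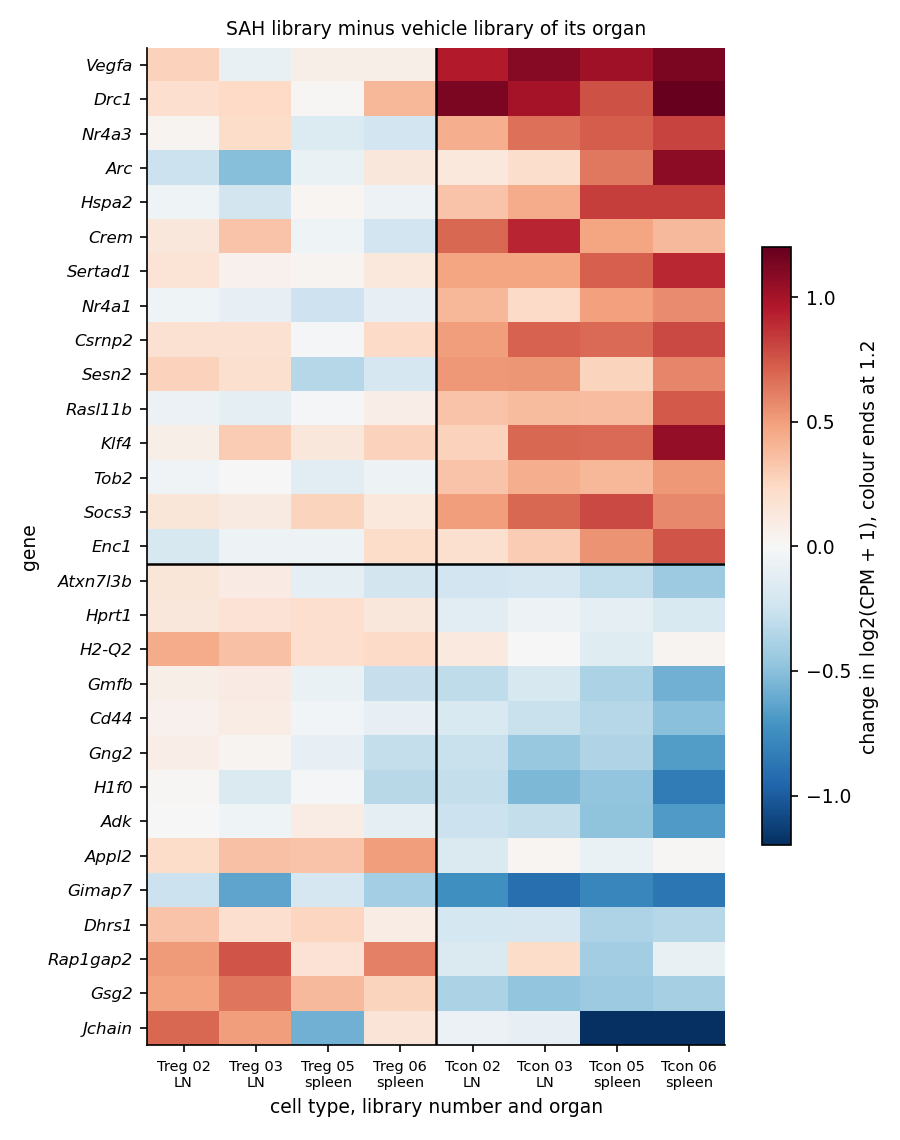
Change of each SAH library against the vehicle library of its organ, in log2(CPM + 1), for the 15 genes with the largest negative and all 14 genes with a positive difference (rows), in 4 Treg and 4 Tcon libraries (columns). Red is higher and blue lower after SAH; Tcon columns are red in all upper rows and mostly blue in the lower rows, while Treg columns are pale in most rows.

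A total of 11 genes changed in both cell types, 6 higher and 5 lower. In the difference 0 of these 11 were called, beside 0.777% of all genes, a share too small for this count to be informative. The smallest adjusted p among them was 0.0712, for Dnajb1, and the calls in both cell types use the same libraries as the difference. Hspa1a, an inducible HSP70 chaperone, was at 78.6, 63.4, 233 and 229 CPM in SAH Treg, against 21.5 and 62.1 CPM in vehicle, and at 86.1, 165, 267 and 306 CPM in SAH Tcon, against 29.3 and 40.2 CPM. SAH and vehicle libraries were apart in both cell types. The difference was -0.62, but its interval of -1.06 to -0.18 was wide (adjusted p = 0.256), since pair 02 stood at 0.30 and the other pairs between -1.04 and -0.81. Without number 02 it was -0.93 and passed, without 03 it was -0.40 (adjusted p = 0.43) and without 04 it was -0.32 (adjusted p = 0.841). Hspa1b, a near-identical copy whose reads may be shared with Hspa1a, was at -0.63 (adjusted p = 0.177).

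The upstream window of Hspa1a, chr17:34972157-34972406 on the minus strand of GRCm38.p6, is shown because it holds GAANNTTC, the letters of a heat shock element, in capitals. These letters were in 2 of the 11 windows of genes that changed in both cell types (18.2%), those of the near-identical copies Hspa1a and Hspa1b. They were in 5 of 50 with a negative difference (10%), in 0 of 14 with a positive one and in 6.04% of all. This search too was made with earlier results of these data known, and a match is not a binding site.
Hspa1a: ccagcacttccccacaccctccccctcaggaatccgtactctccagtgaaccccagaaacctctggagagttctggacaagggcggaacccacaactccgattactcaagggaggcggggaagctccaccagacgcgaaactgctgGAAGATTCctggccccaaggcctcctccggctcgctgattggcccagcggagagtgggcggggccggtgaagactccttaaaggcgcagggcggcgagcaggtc

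Other chaperones that rose in both cell types had smaller differences, of -0.31 for Hspa1l, -0.21 for Dnajb1 and -0.16 for Hsph1. The list of 20 measured heat shock chaperones holds inducible and constitutive members, Hspa8 among the latter. It does not hold Hspa2, the HSP70 family member called above with a difference of -0.69. Of these 20, 17 had a negative difference, with a median of -0.15, and 0 were called, beside 0.777% of all genes. In Treg 5 of the 20 rose, beside 0.133% of all genes, and in Tcon 10 did, beside 0.889%. Hspa8, a constitutive HSP70, rose in Tcon (0.37) and had a difference of -0.25 (adjusted p = 0.126), so a pass in Tcon alone is not shown to be a difference between the cell types.

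Of the 5 genes lowered in both cell types 0 were called in the difference, beside 0.777% of all genes. Cpt1a, the carnitine palmitoyltransferase of fatty acid import into mitochondria (chr19:3322334-3385733, plus strand, mm10), was at 122, 117, 127 and 128 CPM in SAH Treg, against 193 and 200 CPM in vehicle, and at 102, 96.9, 124 and 117 CPM in SAH Tcon, against 169 and 184 CPM. SAH and vehicle libraries were apart in both. The difference was 0.01, with an interval of -0.10 to 0.13. The intervals were -0.09 to 0.24 for Slc25a20, the carnitine carrier, -0.25 to 0.15 for Slc15a2, a peptide transporter, -0.23 to 0.21 for Cdk5rap1, which modifies mitochondrial tRNA, and -0.15 to 0.11 for the raised cholesterol exporter gene Abca1. The Slc15a2 difference was -0.34 without number 01 and 0.24 without number 04, fits that each leave the effect to 1 organ. Art2b, an ADP-ribosyltransferase of the T cell surface, was at 0.27 (0.07 to 0.47, adjusted p = 0.274).

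Foxp3 itself had a difference of -0.10 (95% interval -0.21 to 0.02, adjusted p = 0.568), from 697, 726, 655 and 715 CPM in SAH Treg, against 682 and 669 CPM in vehicle. Of 29 measured Treg signature genes 0 were called, beside 0.777% of all genes, and the median was 0.05. Ctla4, a checkpoint receptor, was at 0.19 (0.05 to 0.33, adjusted p = 0.267), Il2ra, the CD25 gene, at 0.20 (-0.05 to 0.45), Ikzf2, which encodes Helios, at 0.15 (-0.10 to 0.39) and Tnfrsf18, the GITR gene, at -0.09 (-0.24 to 0.06). Of 14 genes repressed by FOXP3 0 were called, with a median of 0.01. Ifng was at 0.02 (-0.28 to 0.31) and Mki67, a proliferation marker, at 0.20 (-0.17 to 0.57). Il2ra and Mki67 varied with the libraries used: they were at 0.35 and 0.43 without number 06, and at 0.06 and 0.07 without number 05. Of 29 interferon response genes 24 had a positive difference (median 0.11) and 0 were called. All 13 mitochondrially encoded genes were positive (median 0.05) with 0 called. The pair medians of these 13 were -0.0002, 0.0008, 0.22 and -0.01 for numbers 02, 03, 05 and 06. Their median was 0.0005 without number 05.

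**Figure D5:**
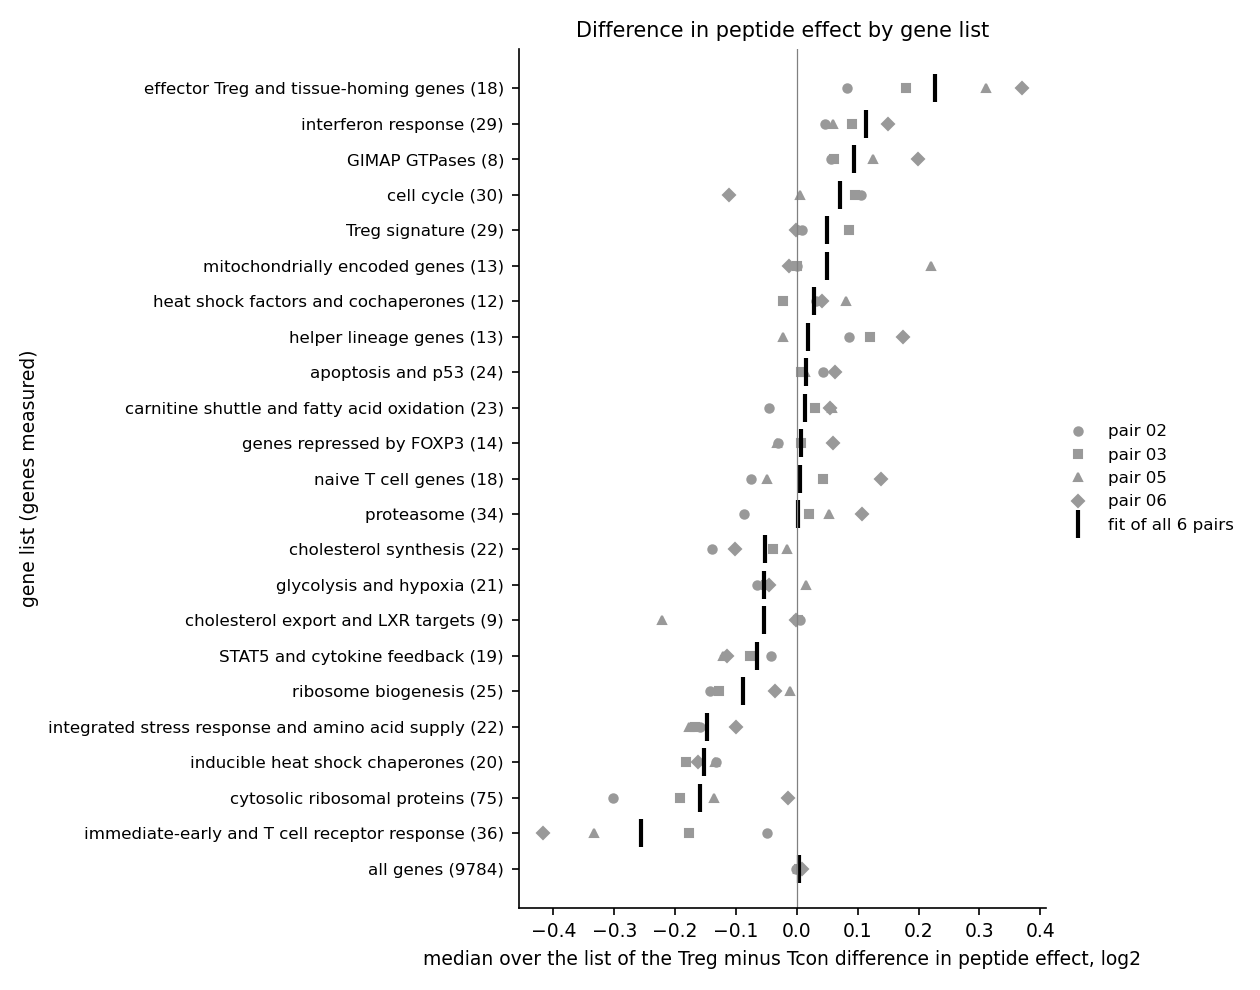
Median difference (Treg minus Tcon, log2) of each gene list with at least 8 measured genes, from the fit of 6 pairs (black bar) and for each SAH pair against the vehicle pair of its organ (grey symbols). Lists run from effector Treg genes at 0.23 to immediate-early genes at -0.26, beside 0.004 for all genes, and pair 02 lies nearest to 0 in the immediate-early list.

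Whether the difference between cell types depended on the organ was tested with an organ by treatment term, which leaves 2 residual degrees of freedom. It was called for 4 of 9784 genes (0.0409%), 3 with a positive term (0.0307%) and 1 with a negative one (0.0102%), and 0 of the 76 genes above were among them. Tmsb10, a thymosin that binds actin, was at 284 and 275 CPM in lymph node SAH Treg, against 454 CPM in vehicle, and at 536 and 486 CPM in lymph node SAH Tcon, against 462 CPM. In spleen it was at 276 and 306 CPM in SAH Treg, against 276 CPM, and at 497 and 524 CPM in SAH Tcon, against 498 CPM. SAH libraries were below vehicle in lymph node Treg, above it in lymph node Tcon and close to it or above it in spleen. The spleen minus lymph node term was 0.88 (adjusted p = 0.00197). Mrpl33, of the mitochondrial ribosome (1.73), and Atp5i, of ATP synthase (1.63), had positive terms, and Klf10, a Krüppel-like factor (-0.81), a negative one. Each organ has 1 vehicle pair, so these 4 values rest on 1 vehicle library per organ and cell type. Without the library number as a block 0 passed. There 151 had an unadjusted p below 0.05, fewer than the 0.05 share of the 9784 genes expected with no effect.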

How the data were processed

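RNA of 6 Treg and 6 Tcon libraries was analysed from 1 deposited table for each cell type. The members, gene lists and tests were chosen with earlier results of these data known. Libraries were made with a stranded mRNA kit, per the labels' protocols, and the submitters' processing notes name TopHat, Bowtie, edgeR and mm10; the sources used here give no versions, annotation or strand setting. The deposited signal is called CPM in the file headers; column totals ran from 971928 to 1.02143e+06, so each library also carries its own scaling factor. All low values were whole multiples of 1 read to within 0.1 read, from which depth was rebuilt. The authors' deposited log2 fold changes, p-values and scores were not used.

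Values were analysed as log2(CPM + 1) for genes listed in both tables with at least 1 CPM in at least 2 libraries of each table, a filter that removed 0 genes. For each library number the Tcon value was subtracted from the Treg value, and the 6 differences were fitted on organ and treatment with limma 3.58.1 (R 4.3.3, two-sided, empirical Bayes moderation with an intensity trend), leaving 3 residual degrees of freedom. Fits within a cell type used the same terms. P-values were adjusted by Benjamini-Hochberg over 9784 genes and called below 0.05. The 4 SAH libraries are set against 1 vehicle library in each organ, so leaving out 01 or 04 leaves the effect to 1 organ. Fold changes on this scale understate changes of low genes. The code was tested on simulated data.

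Libraries that share a number deviated together after organ and treatment were removed: the correlation over 8825 genes was 0.313 to 0.57 for like numbers and -0.554 to 0.318 for unlike ones, with 01 and 04 mirroring each other by construction, so the number was taken as a pair. The pairing comes from the numbers in the titles and this check. In the check, residuals of 1 organ sum to 0 by construction, which lowers the values of unlike numbers within an organ. Numbers 01 and 04 share the lowest like value, 0.313, which is below the highest unlike value of 0.318. The check is therefore weak support for the pairing.

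Genes were named by rule: up to 15 called in each direction by size, all called in both cell types, the largest called within each cell type where their difference adds a result, up to 4 members of each of the gene lists, and set Treg genes; those added after their values were seen are marked. A total of 272 shared symbols hold the same values as another symbol, and 12 are date-like and never named. Coordinates are from the GENCODE annotation of mm10, and upstream sequences from RefSeq on GRCm38.p6. Alternatives were other pseudocounts, filters, centring, no block, no trend, the number as a random effect (chosen after seeing the data) and leaving out each number. A result that rests on a withheld item is not reported here.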

Additional observations from a re-analysis of the deposited data

Results flagged for a closer look

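The change after SAH differed between Treg and Tcon by the test of the difference itself in the named genes below, given as log2 difference, Treg minus Tcon. The change was lower in Treg for Vegfa (-0.96), Drc1 (-0.88), Nr4a3 (-0.69), Arc (-0.69), Hspa2 (-0.69), Crem (-0.57), Sertad1 (-0.55), Nr4a1 (-0.55), Csrnp2 (-0.53), Sesn2 (-0.49), Rasl11b (-0.48), Klf4 (-0.48), Tob2 (-0.48) and Socs3 (-0.48). It was also lower for Enc1 (-0.47), Egr1 (-0.47), Dusp10 (-0.45), Plk2 (-0.44), Fos (-0.44), Irs2 (-0.42), Fosl2 (-0.42), Errfi1 (-0.42), Ier2 (-0.41), Coq10b (-0.40), Glul (-0.40), Slc7a5 (-0.39) and Elmsan1 (-0.38). Smaller negative differences were those of Sik1 (-0.38), Nop56 (-0.38), Sgk1 (-0.38), Nr4a2 (-0.37), Slc38a2 (-0.37), Dusp5 (-0.36), Ppp1r15a (-0.33), Rpl38 (-0.33), Atf4 (-0.28), Il4ra (-0.27) and Bcl2 (-0.26). The change was higher in Treg for Jchain (0.94), Gsg2 (0.87), Rap1gap2 (0.63), Dhrs1 (0.50), Gimap7 (0.45), Appl2 (0.41), Adk (0.41), H1f0 (0.40), Gng2 (0.37), Cd44 (0.33), Gmfb (0.32), H2-Q2 (0.31), Hprt1 (0.28) and Atxn7l3b (0.27).

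The difference itself differed between spleen and lymph node for Mrpl33 (1.73), Atp5i (1.63), Tmsb10 (0.88) and Klf10 (-0.81), as spleen minus lymph node.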

How the results depend on the processing

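The count of 76 genes with a difference between cell types was 76 with a pseudocount of 0.5, 83 with 5, 69 with a mean of at least 5 CPM, 87 with centred libraries and 75 with 1 symbol per gene. It fell to 0 without the replicate block, where 453 had an unadjusted p below 0.05, fewer than the 0.05 share expected with no effect. It fell to 0 without the intensity trend as well (923 at such a p), and to 19 with the number as a random effect (996). The cause of these falls was not tested. Leaving out 1 number gave 16 to 144 for the difference, 7 to 77 for Treg (19 with all) and 11 to 230 for Tcon (103 with all). The organ dependence was called for 4 genes, for 3 with a pseudocount of 5 and for 0 without the replicate block. Tests on rebuilt whole reads were not run, since the values were treated as a normalized signal.

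Among named genes, reversed signs came only from leaving out 1 number and only in genes not called: Abca1 (-0.046 to 0.013 over the 6 fits), Cdk5rap1 (-0.053 to 0.041), Cpt1a (-0.039 to 0.067), Hspa1l (-0.76 to 0.13), Slc15a2 (-0.34 to 0.24), Ikzf2 (-0.055 to 0.35), Ifng (-0.12 to 0.16) and Mki67 (-0.14 to 0.54). Each vehicle group of an organ is 1 library.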
